A study of Homo sapiens with 12 samples.

Results

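Aldo-keto reductases were followed with 16 probes of 8 genes, AKR1A1, AKR1B1, AKR1B10, AKR1C1, AKR1C2, AKR1C3, AKR1C4 and AKR7A2, out of 31425 gene symbols and 47321 usable probes on an Illumina BeadChip. The probes were chosen by the gene symbol that the deposited intensity file gives them. The cells were EA.hy926, a human hybrid line of umbilical vein endothelial origin whose other parent was a lung carcinoma line, and 4 groups of 3 arrays each were compared. They were receptor cells given 10 nM estradiol, receptor cells given ethanol vehicle, control cells given 10 nM estradiol and control cells given vehicle. Receptor cells were stably transfected with the plasmid pCMV3-ERalpha, which expresses human estrogen receptor alpha, a hormone-activated transcription factor, and control cells with the empty backbone pCDNA 3.1. All 4 groups had gone through puromycin selection and the picking of single colonies, spent 24 h in serum-free medium, and received estradiol or vehicle for 16 h. Per the labels, the parent line lacks the receptor. The labels call the arrays biological replicates and do not say whether a replicate number stands for a clone or for a culture, so p-values measure the spread between these samples.

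Aldo-keto reductases are enzymes that use NADPH to reduce aldehydes and ketones to alcohols. AKR1A1, AKR1B1 and AKR1B10 act mainly on sugar, lipid and retinoid aldehydes, the AKR1C enzymes reduce ketone groups on steroids and prostaglandins, and AKR7A2 reduces small aldehydes such as succinic semialdehyde. In endothelium AKR1B1, aldose reductase, is best known for turning glucose into sorbitol when glucose is high, and several AKR1B and AKR1C genes are classic targets of the oxidative stress factor NRF2.

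Between 39% and 41.7% of the probes were detected per array. Principal component analysis put the lines apart on the first axis and spread the receptor replicates on the second. ESR1, which encodes the receptor itself, had a probe detected on 0 of 12 arrays. Whether that probe covers the transfected part of the transcript was not tested, and the labels report the protein by western blot. Of 12 endothelial markers 11 were detected, among them PECAM1, CDH5 and VWF, while CLDN5 was not. Of 12 epithelial markers 8 were detected (CDH1, CLDN7, ESRP1 and ELF3 were not), and of 10 fibroblast markers 2, with COL1A1, COL3A1, DCN and LUM undetected.

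Of the 16 probes, 8 passed the detection filter, a detection p under 0.05 on at least 3 of 12 arrays, and they covered 6 of the 8 genes. Levels below are normalized log2 intensities, on which detection began between 4.81 and 4.89. The single AKR1C1 probe was detected on 0 of 12 arrays, and its detection p ran from 0.745 to 0.988. AKR1C1 inactivates progesterone by reducing its side chain. All 6 probes of AKR1C2, which inactivates the androgen dihydrotestosterone, were likewise detected on 0 of 12 arrays, with detection p between 0.0597 and 0.969. The second probe of AKR1C4 was detected on 0 of 12 arrays, although the first was detected on all 12. AKR1C transcripts resemble each other closely, the probe sequences were not used here, and whether a probe also binds a related transcript was not tested.

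**Figure D1:**
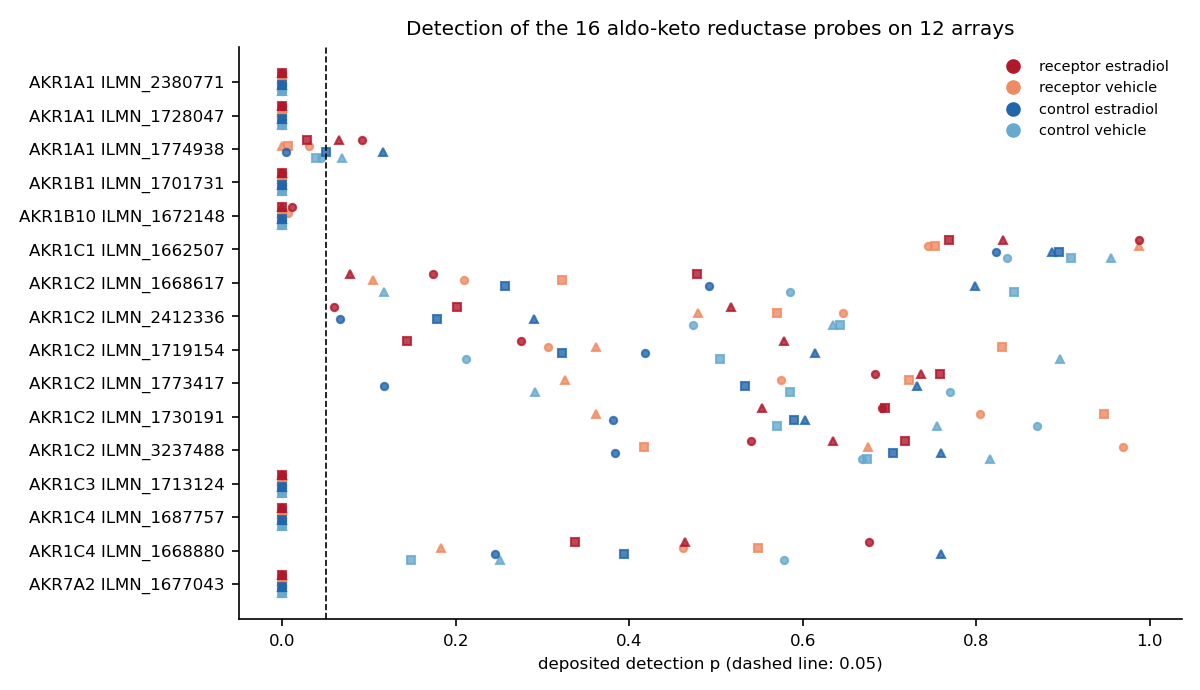
Deposited detection p (x axis) of each of the 16 aldo-keto reductase probes (rows) on 12 arrays; colour gives the group, marker shape the replicate number, and the dashed line is 0.05. The AKR1C1 probe, the 6 AKR1C2 probes and the second AKR1C4 probe lie right of the line on all 12 arrays, and 7 probes lie left of it on all 12.

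The AKR1C genes sit side by side on chromosome 10, and their promoters are shown because 2 of them belong to undetected genes and the other to a detected one. The sequences are from RefSeq (GRCh38.p14), each running from 250 bases before to 50 bases after the annotated start. The AKR1C1 promoter (chr10:4963165-4963464, plus strand) and the AKR1C2 promoter (chr10:5003808-5004107, minus strand) aligned over 308 columns, of which 288 held the same base (93.5%). Capitals in the lines for this pair mark bases that differ or have no partner in the alignment, which held 4 substituted columns and 8 unpaired bases on each side.
AKR1C1: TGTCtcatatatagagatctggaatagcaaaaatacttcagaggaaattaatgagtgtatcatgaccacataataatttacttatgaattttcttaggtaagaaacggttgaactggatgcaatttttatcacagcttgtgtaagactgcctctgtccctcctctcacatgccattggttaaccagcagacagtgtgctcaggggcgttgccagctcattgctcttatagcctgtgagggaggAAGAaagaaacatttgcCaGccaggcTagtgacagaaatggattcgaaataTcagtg
AKR1C2: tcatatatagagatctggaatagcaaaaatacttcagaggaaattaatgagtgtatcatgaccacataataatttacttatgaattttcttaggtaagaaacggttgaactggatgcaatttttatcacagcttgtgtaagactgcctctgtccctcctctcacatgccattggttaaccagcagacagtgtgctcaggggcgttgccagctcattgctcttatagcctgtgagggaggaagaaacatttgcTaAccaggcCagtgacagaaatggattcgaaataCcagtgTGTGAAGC
The AKR1C3 promoter (chr10:5094164-5094463, plus strand), the later of 2 entries for this gene, matched that of AKR1C1 in 226 of 317 columns (71.3%). Its capitals mark the bases that differ from AKR1C1 or have no partner there.
AKR1C3: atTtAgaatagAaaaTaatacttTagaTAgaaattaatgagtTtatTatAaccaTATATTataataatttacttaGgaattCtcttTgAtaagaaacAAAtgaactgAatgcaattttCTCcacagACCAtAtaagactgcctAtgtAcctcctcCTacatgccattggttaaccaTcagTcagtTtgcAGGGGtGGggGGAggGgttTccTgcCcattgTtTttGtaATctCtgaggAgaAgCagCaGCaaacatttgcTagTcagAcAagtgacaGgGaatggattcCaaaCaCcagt
AKR1C4 was further from AKR1C1, at 61.6% identity.

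AKR1B10 was the only member called between the cell lines: receptor cells had 3.81-fold less of it than control cells under vehicle and 3.55-fold less under estradiol. AKR1B10 reduces retinaldehyde and lipid aldehydes and is made in gut epithelium and in lung carcinomas. In receptor cells under vehicle its levels were 5.18, 5.85 and 5.85 on the log2 scale, against 7.43, 7.63 and 7.60 in control cells under vehicle. Receptor cells under estradiol had 5.07, 5.76 and 6.27, against 7.57, 7.55 and 7.45 in control cells under estradiol. All 6 receptor arrays were below all 6 control arrays, and the probe was detected on all 12. How many of all probes separate the lines in this way was not counted, so the separation is a description. The log2 fold was -1.93 ± 0.25 (SE; 95% interval -2.47 to -1.39; adjusted p = 0.000616) under vehicle and -1.83 ± 0.25 (-2.37 to -1.29; adjusted p = 0.000827) under estradiol. These changes were larger than those of 99.8% and 99.7% of the probes tested. Its receptor-cell intensities were low, 130.8 to 152.6 before background correction, against 248.8 to 277.2 in control cells. Without background correction the log2 fold was -0.99 under vehicle and -0.94 under estradiol, and in the authors' deposited normalized table -1.01 and -0.95, still called each time.

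**Figure D2:**
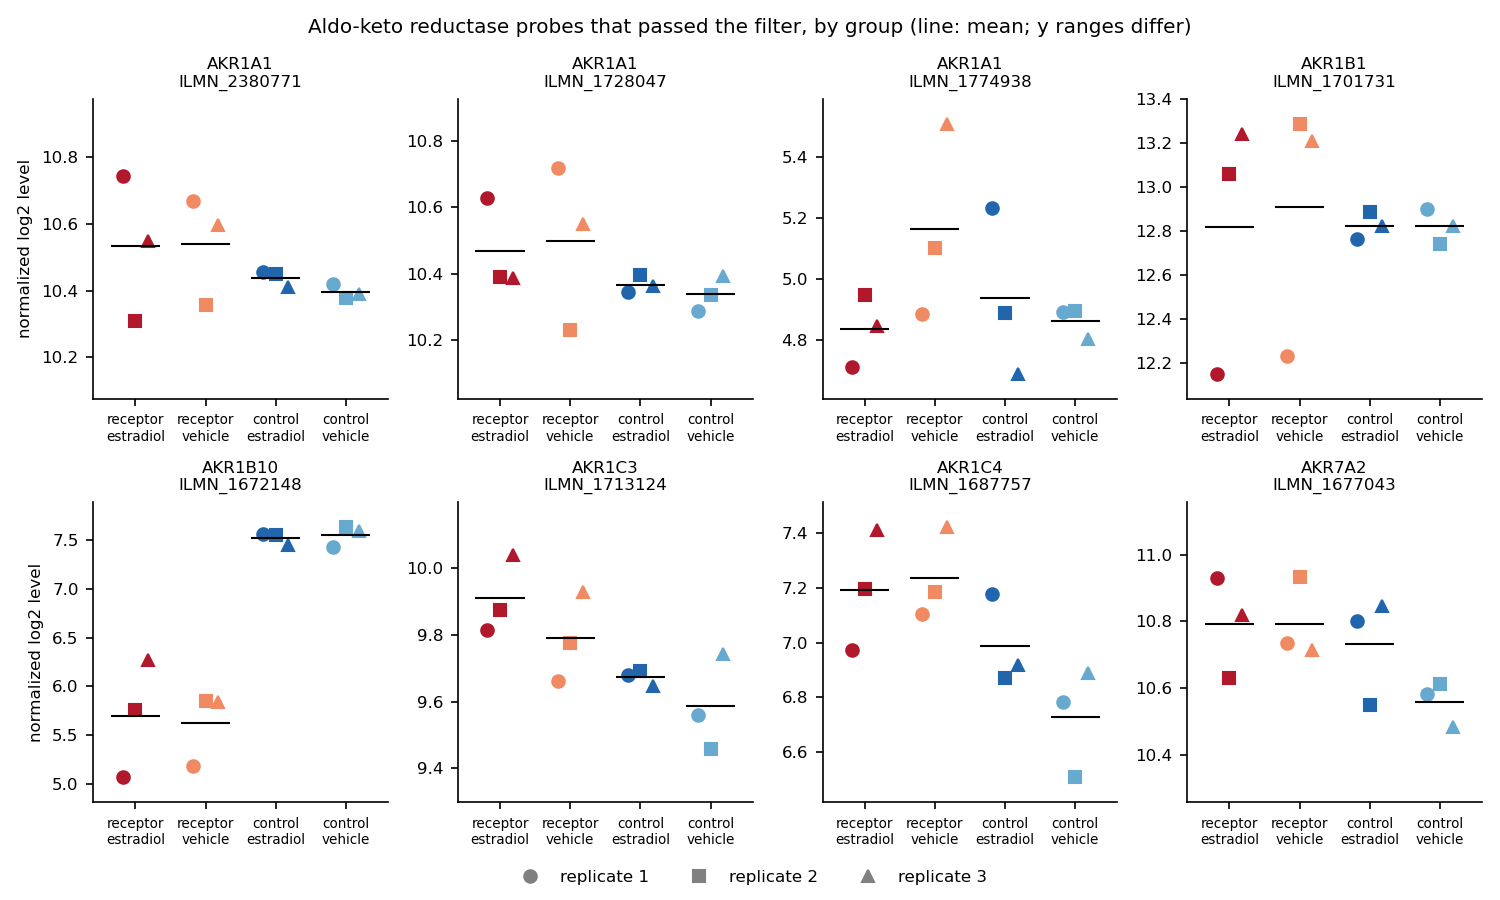
Normalized log2 level (y axis, ranges differ by panel) of the 8 probes that passed the filter, by group (x axis), with marker shapes for replicate numbers and lines for group means. AKR1B10 lies between 5.07 and 6.27 in receptor cells and between 7.43 and 7.63 in control cells, and AKR1B1 is lowest in receptor replicate 1 under either treatment.

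Within receptor cells AKR1B10 was lowest in replicate 1 under either treatment. Receptor replicates 1, 2 and 3 differed from the control mean by -2.38, -1.70 and -1.71 on the log2 scale under vehicle, and by -2.46, -1.77 and -1.26 under estradiol. With replicate 1 of both receptor groups left out, the fold was -1.71 (adjusted p = 4.97e-05) under vehicle and -1.51 (adjusted p = 0.000116) under estradiol.

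Of the 8 member probes tested, 1 was called lower and 0 higher under vehicle, against 7.34% of all 21476 probes called in either direction, and the same counts were found under estradiol, where 6.19% of all probes were called. At an unadjusted p under 0.05 the member counts were 2 of 8 under vehicle and 1 of 8 under estradiol, against 5119 and 4608 of all 21476 probes. The 8 probes had a median log2 fold of 0.18 under vehicle and 0.08 under estradiol, beside -0.01 over all probes in each case. The number called over all probes moved with single arrays: 1577 under vehicle became 778 without receptor replicate 2, and 670, 551 and 962 without control replicates 1, 2 and 3. Under estradiol 1330 became 745 and 2048 without receptor replicates 2 and 3, and 622, 644 and 685 without control replicates 1, 2 and 3.

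AKR1B1, the closest relative of AKR1B10 among the members and its neighbour on chromosome 7, did not differ detectably between the lines. Receptor cells under vehicle had 12.23, 13.29 and 13.21, against 12.90, 12.74 and 12.82 in control cells under vehicle. Receptor cells under estradiol had 12.15, 13.06 and 13.24, against 12.76, 12.89 and 12.82 in control cells. Receptor replicate 1 lay below all control arrays and receptor replicates 2 and 3 above them, under either treatment. The log2 fold was 0.09 ± 0.28 (SE; adjusted p = 0.887; 95% interval -0.52 to 0.70) under vehicle and -0.01 ± 0.28 (adjusted p = 0.992) under estradiol. With replicate 1 of both receptor groups left out, it was 0.43 under vehicle, which passed the threshold (adjusted p = 0.0327), and 0.33 under estradiol, which did not (adjusted p = 0.0977). The SD between receptor arrays was 0.59 under vehicle and 0.58 under estradiol, against 0.08 and 0.06 between control arrays.

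Among the genes next to AKR1B10, BPGM was also lower in receptor cells, and the others nearby with a probe that passed the filter, PLXNA4 excepted, were not called. In gene order the neighbours were AKR1B1 on one side and, on the other, AKR1B15, BPGM and CALD1. AKR1B15, another reductase of this subfamily, was detected on 0 of 12 arrays. BPGM, which makes the red-cell metabolite bisphosphoglycerate, had 2 probes that passed. Its brighter probe had 7.01, 7.27 and 7.42 in receptor cells under vehicle, against 8.90, 8.92 and 9.04 in control cells, a log2 fold of -1.72 ± 0.17 (SE; adjusted p = 6.35e-05), and -1.67 ± 0.17 (adjusted p = 6.23e-05) under estradiol. Its other probe had 4.59, 4.83 and 4.97 in receptor cells under vehicle, against 6.36, 6.02 and 6.12 in control cells. In receptor cells it was at the start of detection and detected on 1 of 3 arrays, so the size of its difference is not well measured. CALD1, which encodes an actin-binding protein, had folds of -0.27, -0.23 and -0.02 by 3 probes, none of them called. Within 8 genes on either side, 1 probe of PLXNA4, a semaphorin receptor, was the only other one called, at -1.11 (adjusted p = 0.00252) under vehicle and -0.75 (adjusted p = 0.0229) under estradiol. Its other probe that passed, detected on 5 of 12 arrays, had -0.25 (adjusted p = 0.379) under vehicle and -0.075 (adjusted p = 0.842) under estradiol. Over 50 measured genes around AKR1B10 on chromosome 7 the median log2 fold under vehicle was -0.08, with 4 called lower, AKR1B10 left out, and 0 higher.

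**Figure D3:**
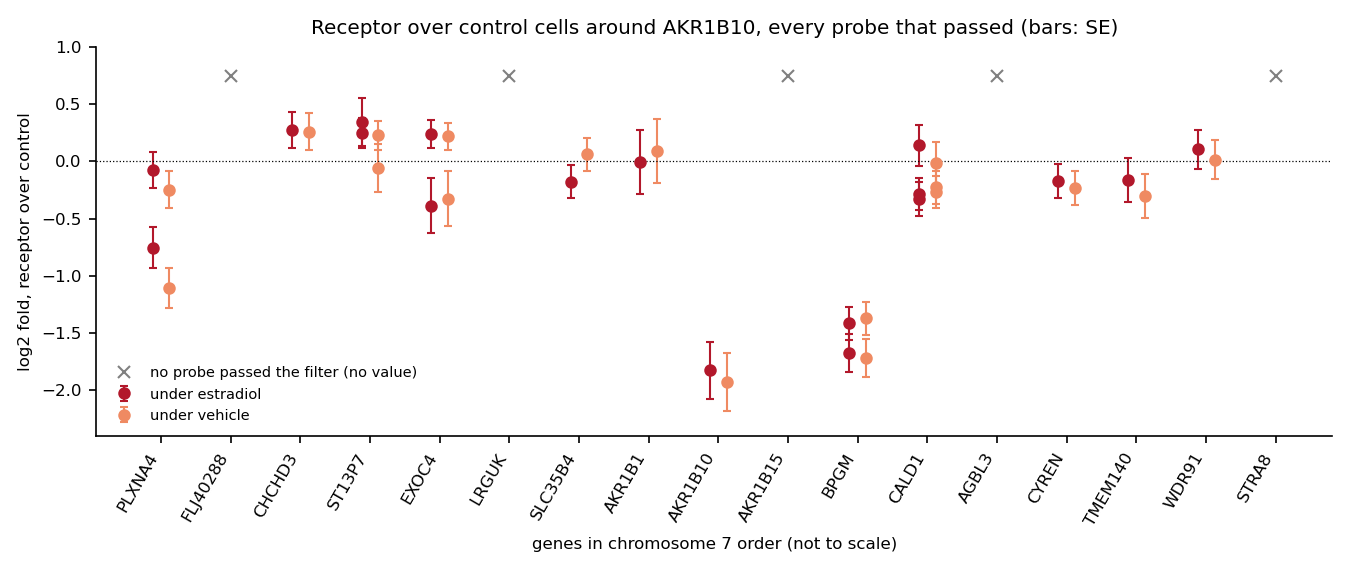
Log2 fold of receptor over control cells (y axis; bars are SE) for every probe that passed the filter, with genes in chromosome 7 order (x axis, not to scale) and colours for estradiol and vehicle; crosses mark genes with no probe that passed. AKR1B10 and both BPGM probes lie between -1.93 and -1.37, apart from AKR1B1 near 0.

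By the smallest root-mean-square difference over the 12 arrays after centring, the probes most like AKR1B10 were those of RARB (0.158), BPGM (0.172), PLAC9 (0.196), CPT1C (0.212) and SUGCT (0.222), in log2 units. All were lower in receptor cells, which the measure of likeness brings about, so their folds are a description. RARB, the retinoic acid receptor beta, had 4.44, 5.18 and 5.46 in receptor cells under vehicle, against 6.92, 7.16 and 6.74 in control cells, and was detected on 2 of the 3 receptor arrays. SUGCT, a mitochondrial glutarate CoA transferase, had 7.78, 8.34 and 8.36 against 9.79, 9.96 and 9.78 in the same groups. CPT1C, a brain-type relative of the carnitine palmitoyltransferases, was detected on 0 of 3 receptor arrays under vehicle and was at least 2.93-fold lower there than in control cells, the bound being the level at which detection began on each array.

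AKR1C3 makes testosterone from androstenedione and prostaglandin F from its precursors, and its single probe was detected on all 12 arrays. Receptor cells under estradiol had 9.82, 9.88 and 10.04, against 9.68, 9.69 and 9.65 in control cells under estradiol. Receptor cells under vehicle had 9.66, 9.78 and 9.93, against 9.56, 9.46 and 9.74 in control cells. The groups did not overlap under estradiol and overlapped under vehicle. Overlap was not counted over all probes, so for AKR1B10, AKR1C3, AKR1C4 and AKR7A2 it is only a description of the levels. The log2 fold was 0.24 ± 0.12 (SE; adjusted p = 0.27) under estradiol and 0.20 ± 0.12 (adjusted p = 0.322) under vehicle, so neither was called.

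AKR1C4, a steroid reductase made mainly by liver, came next after AKR1B10 in size of change under vehicle. Its first probe had 7.10, 7.19 and 7.42 in receptor cells under vehicle, against 6.78, 6.51 and 6.89 in control cells. Under estradiol it had 6.97, 7.20 and 7.41 in receptor cells, against 7.18, 6.87 and 6.92 in control cells. The groups did not overlap under vehicle and overlapped under estradiol. The fold was 0.51 ± 0.15 (SE; 95% interval 0.18 to 0.84; adjusted p = 0.0611) under vehicle and 0.20 ± 0.15 (adjusted p = 0.484) under estradiol. The size of the vehicle difference depended on the background correction: it was 0.30 without that correction and 0.30 in the authors' normalized table (adjusted p = 0.0517 in each case). Its adjusted p was 0.0433 with a stricter detection filter and 0.0365 with replicate 1 of both receptor groups left out, and up to 0.233 without control vehicle replicate 2, where the fold was 0.40. The second AKR1C4 probe, undetected on all 12 arrays, disagreed with the first on whether the gene was detected.

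The genes around the AKR1C cluster had mostly negative folds, while AKR1C3 and AKR1C4 had positive ones that were not called. From ZMYND11 to PRTFDC1 on the short arm of chromosome 10, 73 other genes were measured, and their median log2 fold was -0.45 under vehicle and -0.44 under estradiol. Under vehicle 31 of them were called lower and 1 higher, and under estradiol 27 lower and 0 higher. Over all 15249 genes 676 were called lower and 521 higher under vehicle, and 588 lower and 448 higher under estradiol. The stretch was chosen with earlier results of these data known, so its low median and the ranks against it are a description. The median was negative in each receptor replicate, at -0.35, -0.43 and -0.47 under vehicle. AKR1C3 had a higher fold than 68 of the 73 in either comparison, and AKR1C4 than 72 under vehicle and 68 under estradiol. AKR1C8, which lies between AKR1C3 and AKR1C4, had a fold of 0.27 ± 0.20 (SE; adjusted p = 0.441) under vehicle and -0.13 ± 0.20 (adjusted p = 0.772) under estradiol, by a probe detected on 5 of 12 arrays. AKR1E2, a reductase gene in the same stretch, had a fold of -0.52 ± 0.28 (SE; adjusted p = 0.272) under vehicle, close to the neighbours' median.

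**Figure D4:**
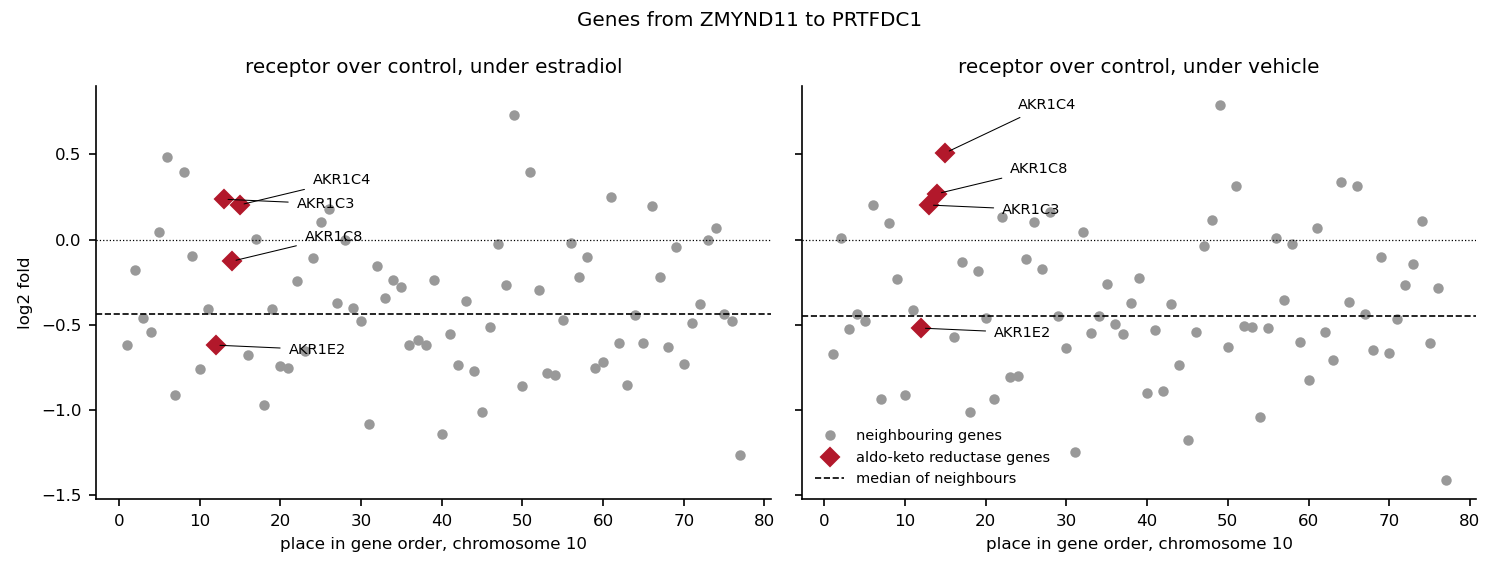
Log2 fold of receptor over control cells (y axis) for genes from ZMYND11 to PRTFDC1 in their order on chromosome 10 (x axis), under estradiol (left) and vehicle (right); diamonds are aldo-keto reductase genes and the dashed line is the median of the 73 other genes. The median is -0.44 under estradiol and -0.45 under vehicle, while AKR1C3 and AKR1C4 lie above 0 in each panel.

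AKR1A1, the general aldehyde reductase that also takes part in making ascorbate in animals other than primates, had 3 probes that passed. The first had 10.67, 10.36 and 10.60 in receptor cells under vehicle, against 10.42, 10.38 and 10.39 in control cells, and the second 10.72, 10.23 and 10.55 against 10.29, 10.34 and 10.39. In receptor cells under vehicle replicate 1 was highest and replicate 2 lowest by either probe, and the groups overlapped. The folds were 0.14 ± 0.13 (SE; adjusted p = 0.534) and 0.16 ± 0.13 (adjusted p = 0.493) under vehicle and 0.10 and 0.10 under estradiol. The 50 measured genes around AKR1A1 on chromosome 1 had a median deviation from the control mean of 0.21 in receptor replicate 1 under vehicle, and of -0.07 and -0.01 in receptor replicates 2 and 3. The third probe was detected on 7 of 12 arrays and lay between 4.69 and 5.51, near the start of detection.

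AKR7A2 had 10.73, 10.93 and 10.71 in receptor cells under vehicle, against 10.58, 10.61 and 10.48 in control cells. These groups did not overlap, and how many of all probes share that was not counted. Under estradiol it had 10.93, 10.63 and 10.82 in receptor cells, against 10.80, 10.55 and 10.85 in control cells, and the groups overlapped. The fold was 0.24 ± 0.12 (SE; adjusted p = 0.273) under vehicle and 0.06 ± 0.12 (adjusted p = 0.838) under estradiol. AKR7A3, a related gene, had a fold of 0.38 ± 0.14 (adjusted p = 0.115) under vehicle by its detected probe and was undetected on 12 arrays by its other one.

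The AKR7A2 promoter is shown because it was the single one, among the 7 members with an entry, to hold the core letters of the antioxidant response element at which NRF2 acts. The letters searched were TGACNNNGC on both strands, and 13.3% of 35116 promoters of this length held them. AKR7A2 held 3 matches, in capitals, the leftmost of them on the opposite strand (RefSeq, GRCh38.p14, chr1:19312097-19312396, minus strand).
AKR7A2: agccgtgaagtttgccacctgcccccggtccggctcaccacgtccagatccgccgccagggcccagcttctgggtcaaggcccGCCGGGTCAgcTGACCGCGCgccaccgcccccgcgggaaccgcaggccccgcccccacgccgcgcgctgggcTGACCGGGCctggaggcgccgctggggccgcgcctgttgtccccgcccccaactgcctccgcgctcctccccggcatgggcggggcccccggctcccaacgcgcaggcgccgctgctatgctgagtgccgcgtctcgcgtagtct
The full palindromic estrogen response element was in 0 of the 7 members' promoters and in 0.057% of all. AKR1B10 had no entry. A match or its lack describes these letters in this window.

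No member probe was called for the response to estradiol. In receptor cells 0 of 8 were called, against 0.0605% of all probes (13, all higher), and the number over all probes was 26 with the replicate number as a block, which left the member count at 0. In control cells 0 of 8 were called, against 0% of all probes (0 called, 528 at an unadjusted p under 0.05). The response differed between the lines for 0 of 8, against 0.0279% of all probes. At an unadjusted p under 0.05 the member count was 0 of 8 in each of these limma comparisons, against 739, 528 and 636 of all probes. With the replicate block within each line it was 1 in receptor cells, 1 in control cells and 0 for the difference, against 1663, 1325 and 1561 of all probes. The 13 calls became 7 and 8 without receptor vehicle replicates 2 and 3.

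For AKR1B10 the estradiol response was 0.07 ± 0.25 (SE; 95% interval -0.47 to 0.61) in receptor cells and -0.03 ± 0.25 (-0.57 to 0.51) in control cells. Both SEs use the spread pooled over the 4 groups, and a fit of only the control groups gave an SE of 0.093 in control cells. Receptor replicates 1, 2 and 3 changed by -0.11, -0.10 and 0.42, so the direction was not shared. For AKR1C3 the same replicates changed by 0.15, 0.10 and 0.11, a shared direction, and for AKR1B1 by -0.08, -0.23 and 0.03. On average AKR1C3 changed by 0.12 ± 0.12 in receptor cells (-0.13 to 0.38) and AKR1B1 by -0.09 ± 0.28 (-0.70 to 0.52). These intervals include the spread between receptor replicates, which the replicate block takes out. With the block within each line, the SE in receptor cells was 0.124 for AKR1B10, 0.095 for AKR1C3 and 0.098 for AKR1B1, and none was called. AKR1C4 had 0.26 ± 0.15 in control cells (-0.07 to 0.59) and -0.04 ± 0.15 in receptor cells (-0.37 to 0.29). Without the replicate block, the intervals of all 8 probes included 0 in each of the 3 comparisons that involve the response to estradiol. With the block, limma gave the third AKR1A1 probe a response of -0.33 ± 0.13 in receptor cells (SE; unadjusted p = 0.0326, adjusted p = 0.592) and AKR1C4 one of 0.26 ± 0.10 in control cells (unadjusted p = 0.03, adjusted p = 0.772).

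**Figure D5:**
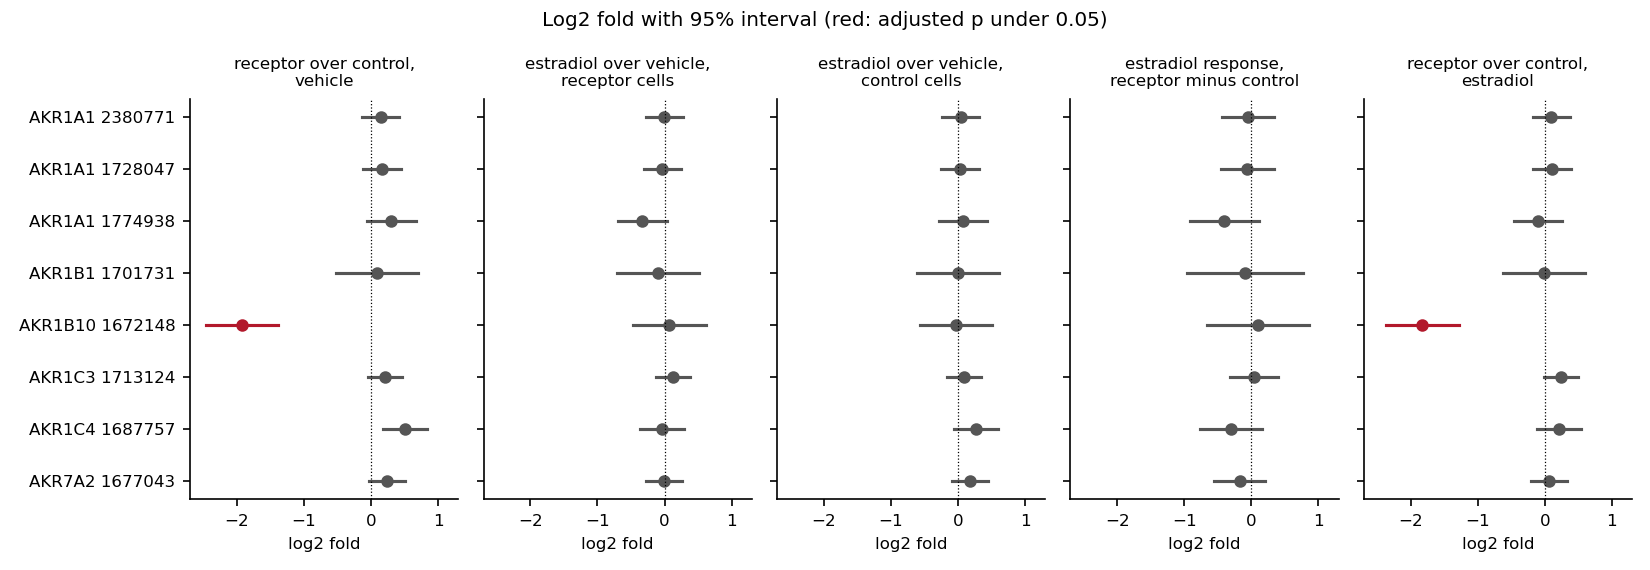
Log2 fold (x axis) with its 95% interval for the 8 probes that passed the filter (rows, gene and probe number) in 5 comparisons (panels); red marks an adjusted p under 0.05. AKR1B10 is red in the receptor over control panels, at -1.93 under vehicle and -1.83 under estradiol, and the estradiol panels hold no red point.

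ALDH1A1 had the smallest p among the other enzymes of aldehyde metabolism that were measured. Of 28 measured genes among other carbonyl and aldehyde reductases and dehydrogenases, 2 were called lower and 0 higher under vehicle (median log2 fold -0.06, against -0.01 over all genes). Over all 15249 genes 7.85% were called under vehicle (521 higher, 676 lower) and 6.79% under estradiol (448 higher, 588 lower), and the counts given here for lists of enzymes and NRF2 targets, which were not tested against these shares, are a description. ALDH1A1, which oxidises retinaldehyde to retinoic acid, had 10.40, 10.55 and 10.52 in receptor cells under vehicle, against 12.07, 12.23 and 12.11 in control cells, a fold of -1.65 ± 0.13 (SE; adjusted p = 7.15e-06). CBR4, a mitochondrial carbonyl reductase, was lower by 0.62 (adjusted p = 0.00723). Under estradiol 3 were lower, ALDH1A1 at -1.55, CBR4 at -0.80 and ADH5, formaldehyde dehydrogenase, at -0.50.

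Of 24 measured NRF2 targets other than aldo-keto reductases, 2 rose and 1 fell in receptor cells under vehicle (median -0.06), and 3 rose and 0 fell under estradiol (median 0.05). ME1, malic enzyme, an NADPH source, had 8.09, 8.65 and 8.01 in receptor cells under vehicle, against 7.28, 7.13 and 7.28 in control cells (1.02 ± 0.16, SE; adjusted p = 0.00246). TXNRD1, thioredoxin reductase, rose by 0.40 (adjusted p = 0.0485) under vehicle and 0.70 (adjusted p = 0.00243) under estradiol, and ABCC1, an exporter of glutathione conjugates, fell under vehicle, with a fold of -0.91 (adjusted p = 0.00996). HMOX1, heme oxygenase, was called higher under estradiol at 0.66 (adjusted p = 0.0169). Of 6 measured NRF2 regulators, 1 was called under vehicle, BACH1, a repressor of NRF2 targets, at -0.57 (adjusted p = 0.0151). There it was detected on 1 of 3 receptor arrays and 3 of 3 control arrays. Its receptor-cell mean of 4.78 was near the start of detection, so the size of its difference is not well measured. Under estradiol 0 of the 6 were called, and BACH1 had a fold of -0.25 (adjusted p = 0.268).

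Of 19 measured enzymes of steroid and prostaglandin metabolism, 2 rose and 2 fell under vehicle (median -0.08), and 1 rose and 3 fell under estradiol (median 0.03). HSD11B1, which regenerates cortisol from cortisone, had 7.41, 6.24 and 6.59 in receptor cells under vehicle, against 4.76, 5.02 and 5.20 in control cells (1.76 ± 0.27, SE; adjusted p = 0.00211). In control cells under vehicle it was near the start of detection and detected on 2 of 3 arrays, so the size of its difference is not well measured. CYP1A1, which hydroxylates estradiol, fell, with a fold of -1.14 (adjusted p = 0.00166). None of the genes of these lists was called for the response to estradiol.

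Cell type markers also moved between the lines. None of the 11 measured endothelial markers was called in either comparison, and their summed linear level ran from 12740 to 17800 in receptor cells under vehicle, against 15540 to 17580 in control cells. The sum of the 8 measured epithelial markers ran from 10260 to 13210 in receptor cells under vehicle, against 7503 to 8125 in control cells, and from 13450 to 15460 in receptor cells under estradiol, against 8057 to 8734 in control cells. Under vehicle 3 of the 8 rose, KRT18 (0.87) among them, and MUC1 fell (-1.15). Under estradiol 4 rose and MUC1 fell. KRT19, 1 of these 4, was detected on 3 of 3 receptor arrays and 0 of 3 control arrays under estradiol. Under vehicle it was detected on 1 of 3 receptor arrays and 0 of 3 control arrays. For estradiol over vehicle in receptor cells 0 of the 8 epithelial markers were called, KRT19 included (median log2 fold 0.05). Over all genes 0.0656% were called in that comparison. Of the fibroblast markers FAP was called lower, at -0.75 under vehicle. The part of these markers in the AKR1B10 difference was not tested, and the design holds the receptor together with any other difference between the transfected populations, which cannot be told apart. In RNA of whole cultures, fewer cells that make a transcript and less of it per cell cannot be told apart either.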

How the data were processed

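RNA of 12 EA.hy926 cultures was measured on Illumina BeadChips. Per the file headers, the authors deposited a non-normalized intensity and a detection p-value per probe and array, and their own normalized intensity table. The submitters' processing notes name lumi. The chip of each array and the build of the probe annotation were not given in the sources used here.

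The deposited intensities were processed with neqc (limma 3.58.1, R 4.3.3), which uses the detection p-values for normexp background correction, adds an offset of 16, equalises quantiles between arrays and takes log2. The offset makes folds of dim probes smaller than background correction alone would. With neither step, folds of the dim AKR1B10 and AKR1C4 probes under vehicle were smaller still, at -0.99 against -1.93 and 0.30 against 0.51. Of 47322 probes 1 lacked values, and 21476 passed the filter. Older symbols were updated from a human gene table (27035 probes current, 4675 updated, 12341 not in the table, 3270 without symbol), which also gave gene order. All 12 arrays entered 1 linear model of the 4 group means (8 residual and 5.02 prior degrees of freedom), with moderated two-sided tests, Benjamini-Hochberg adjustment over all probes passed, and calls at an adjusted p under 0.05. Each SE comes from this model. Lists use the probe with the highest mean per gene. The code was tested on simulated data. Arrays give no counts, so the number of arrays and the background limit precision.

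Named were all member probes, up to 3 called genes with the smallest p per list and comparison, and the 5 genes most like the most variable member. Some genes that this rule names are not reported here. The neighbours of AKR1B10 on chromosome 7, AKR1E2, AKR1C8, AKR1B15 and AKR7A3 were named after their values were seen. The members and lists were chosen with earlier results of these data known. Vehicle and estradiol arrays of the same replicate number deviated together in receptor cells (correlations 0.73, 0.36 and 0.65 across probes) and hardly in control cells (0.08, 0.04 and 0.10). Between the lines the correlations ran from -0.05 to 0.03, so numbers pair arrays within receptor cells and do not pair the lines. Figures were drawn with matplotlib 3.10.9 (Python 3.11.15), and promoters were aligned with Biopython 1.88. Alternatives covered normalization, background, filters, probe choice, arrays in the fit, left-out arrays, replicate blocks and the chromosome 10 neighbours.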

Additional observations from a re-analysis of the deposited data

How the results depend on the processing

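AKR1B10 stayed called lower in receptor cells under all 15 alternatives, with a fold between -2.04 and -0.99 under vehicle and between -2.11 and -0.94 under estradiol. Of 40 member results 35 changed no call, and 8 of the 601 recomputed values did, all from not called to called. Against 1 in either comparison of the lines, the member probes called under vehicle were 2 with the stricter filter on dim probes (AKR1C4), 3 with replicate 1 of both receptor groups left out (AKR1B1, AKR1C4), 2 with a replicate block over all groups (AKR1C4, adjusted p = 0.0457, although numbers do not pair the lines) and 3 with the chromosome 10 median subtracted (AKR1C3, AKR1C4); under estradiol they were 3 with that subtraction. The subtraction adds 0.43 under vehicle and 0.41 under estradiol to the fold of every gene in the stretch, so its calls, 4 of the 8, follow from its construction and are no separate result on AKR1C3 or AKR1C4. Over all probes, estradiol in receptor cells gave 1 call in a fit of only the groups compared and 26 with the replicate block within each line, against 13. Receptor over control under estradiol gave 822 in a fit of only the groups compared and 2021 without replicate 1 of both receptor groups, against 1330. Leaving out single arrays gave 551 to 1868 for receptor over control under vehicle, 622 to 2048 under estradiol, 7 to 17 for estradiol in receptor cells, and 1 to 8, against 6, for the difference between the responses (1 without control vehicle replicate 3, 2 without control estradiol replicates 1 or 2, 3 without control vehicle replicates 1 or 2, receptor estradiol replicate 1 or control estradiol replicate 3). The causes of the other changes were not tested. Uncalled folds near 0 changed sign under some settings, which was not read as a reversal. A block for the BeadChip was not run, since the headers name no chip. Signal near background limits what can be said of AKR1C1, AKR1C2, the second AKR1C4 probe and the third AKR1A1 probe.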
